A study of Drosophila melanogaster with 4 samples.

Results

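The genes described here are 6 components of the Toll and Imd signalling pathways, Tl, pll, cact, dl, Dif and Rel, and the 4 cecropin genes CecA1, CecA2, CecB and CecC. They are 10 of the 17872 genes of the RefSeq gene table for Drosophila melanogaster and 10 of the 7714 that could be placed on chromosome arms 2L and 3R. They were chosen by name for their roles, with earlier results of these data known. The 3 genes cact, dl and Dif lie on 2L and the other 7 on 3R.

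Chromatin came from Kc167 cells, a female Drosophila line derived from embryos, labelled as late embryonic in stage and with the genotype se/e. Cells were fixed with formaldehyde, and chromatin was precipitated with a rabbit polyclonal antibody (ab5131) against RNA polymerase II phosphorylated on serine 5 of its C-terminal repeats, the form linked with initiation and the early part of transcription. All libraries came from this 1 line with no immune stimulus named in the labels, so no induced state was measured. The series held 2 ChIP and 2 input libraries, and the labels do not say whether replicates came from separate cultures.

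In flies the Toll and Imd pathways carry the signal of microbial infection to the nucleus. In the Toll pathway a processed Spätzle ligand binds Toll, the kinase Pelle is activated, the inhibitor Cactus is degraded, and the NF-kappaB factors Dorsal and Dif enter the nucleus. In the Imd pathway peptidoglycan is sensed and the NF-kappaB factor Relish is cut, so that its N-terminal part enters the nucleus. Cecropins are short antibacterial peptides whose genes are strongly induced by these factors after infection.

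The authors deposited a list of enriched regions for each ChIP replicate and 1 more for both together, which is the combined list below. Each region has a score that is above 0 when enriched. Its scale is not named in the sources used here, so scores were ranked within a list and only set side by side between lists. The combined list held 5074 enriched regions, the replicate 1 list 4874 and the replicate 2 list 4822, and read depth is unknown. No region list from input DNA was used here. Region positions are those of FlyBase release 5. Gene positions are of release 6 and were placed on release 5 by leaving 2L unchanged and subtracting 4174278 on 3R.

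The shift was checked against the regions themselves. With it, 42.3% of the ends of 2657 protein-coding genes on 2L and 43.8% of the ends of 3387 on 3R lay inside a combined region. With a further 5000 bp added, the values were 28.6% and 29.5%. Among the 262 coding genes within 1 Mb of the members on 2L the value was 28.1% with the shift. It was 14.7% with 5000 bp added and 20.0% with 5000 bp subtracted. Among the 798 within 1 Mb of the members on 3R the values were 45.5%, 32.2% and 30.1%. Moves of 500 bp changed these shares little, so the placement is checked to about that distance. The check pools many genes on each arm and was not made at each member alone.

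**Figure D1:**
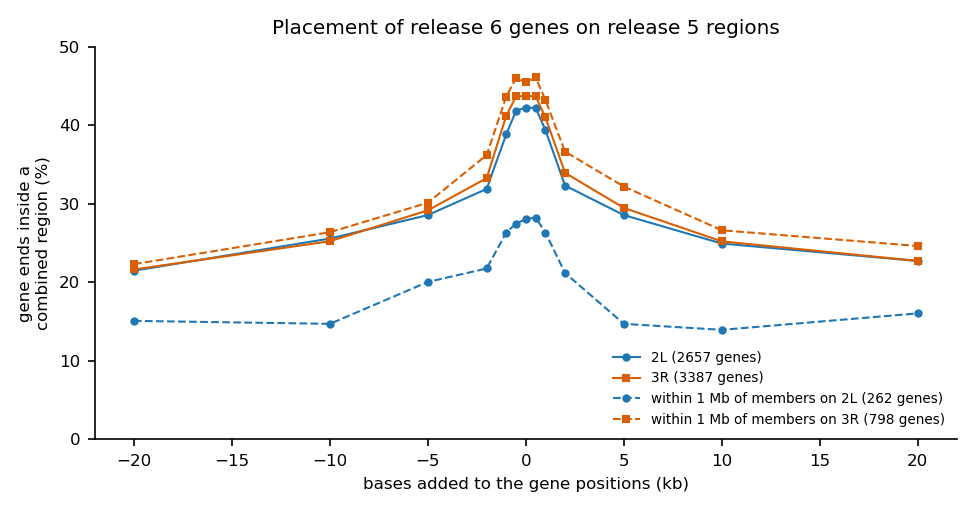
Percent of gene ends that lie in a combined enriched region (y axis) when the stated number of kb is added to all gene positions (x axis), for all coding genes of 2L and 3R and for those within 1 Mb of the members. All 4 curves are highest within 500 bp of 0, where the share is 42.3% on 2L and 43.8% on 3R.

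The gene table gives no strand and no start sites of single transcripts. Each gene was therefore described by both ends of its annotated span, called the lower and the higher end by coordinate, and by its body. A start at an end of the span is covered on either strand only when both ends are covered, and is not covered at all when no base of the gene is.

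Polymerase regions lay over all 6 signalling genes and over none of the 4 cecropin genes, in the combined list and in both replicate lists. A region over any base is common, since 57.2% of 6044 protein-coding genes of these arms had one in the combined list. Of those that span at least 2 kb, as all 6 signalling genes do, 67.3% had one. At least 1 end was covered in 5 of the 6 signalling genes, in Tl, pll, cact, dl and Rel. The background is high here too, since 56.0% of the coding genes had an end in a combined region, 54.5% in a region of replicate 1 and 54.3% in one of replicate 2. Of all 7714 genes 49.5% had one in the combined list, and of coding genes that span at least 2 kb 65.0% had. Both ends were covered in cact and Rel, beside 30.2% of coding genes. The region of Dif lay inside the gene and over neither end. This was so for 1.26% of coding genes and for 2.37% of those that span at least 2 kb. For the cecropins the background is 42.8% of coding genes with no base in a region, and 75.8% of the 223 coding genes that span at most 500 bp (78.0% and 80.3% in replicates 1 and 2). The count of 0 among 4 adjacent short genes is thus close to what short genes show in general. Genes are not replicates and the members were chosen by name, so no test was made of these counts.

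**Figure D2:**
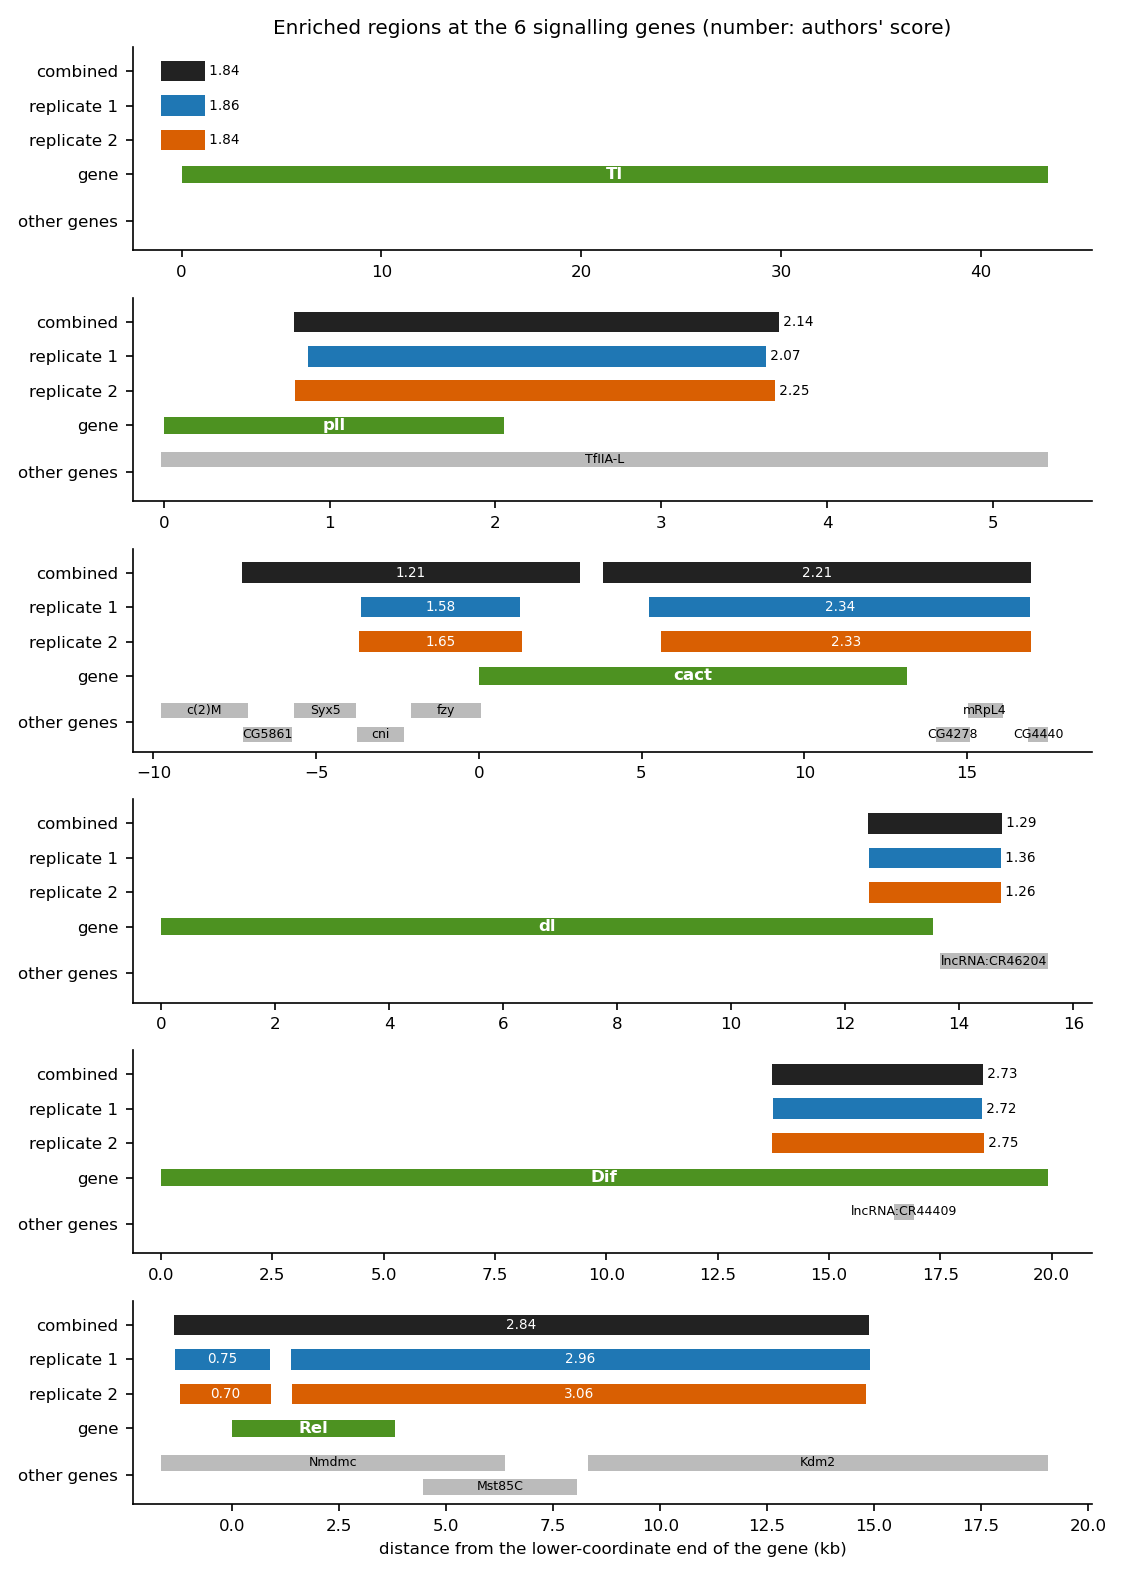
Enriched regions in the combined, replicate 1 and replicate 2 lists at Tl, pll, cact, dl, Dif and Rel, drawn by distance from the lower end of each gene in kb, with the authors' score at each bar, the gene in green and other genes that touch a combined region in grey (gene models beyond the outer regions are drawn to scale). Narrow bars sit over 1 end of Tl and of dl, a bar lies inside Dif, and broad bars run through cact and Rel into neighbouring genes.

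Tl, which encodes the Toll receptor, carried a single narrow region at 1 end of a very long gene. Its span was 43.4 kb, from 22624763 to 22668125 on 3R (gene ID 43222). The combined region ran from 22623720 to 22625920, with a score of 1.84 that ranked 1552 of 5074 and a width of 2.20 kb. Replicates 1 and 2 gave scores of 1.86 and 1.84, ranks of 1593 and 1676, and widths of 2.18 and 2.20 kb. The centre of the combined region was 57 bp from the lower end of Tl, and 1043 bp of it lay outside the gene. No other coding gene touched it. It covered 2.67% of the span, and the replicate regions covered 2.66% ± 0.024 (SD, n = 2 replicate lists). The rest of the Tl body held no region in any list.

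The region of pll, whose product is the Pelle kinase that acts just downstream of Toll, cannot be assigned to pll alone. The gene spans 2052 bp, from 23076853 to 23078904 on 3R (gene ID 43283), and lies whole within the span of TfIIA-L, which encodes the large subunit of the general transcription factor TFIIA. The combined region ran from 23077640 to 23080564, scored 2.14 and ranked 1083 of 5074. The replicates gave 2.07 and 2.25, with ranks of 1251 and 953. It covered the higher end of pll, with its centre 198 bp from that end, and reached 1660 bp beyond it. It stopped 1621 bp short of the higher end of TfIIA-L and 806 bp above the lower one, so the ends of TfIIA-L were outside it. It covered 61.6% of pll, and the replicate regions covered 59.6% ± 2.76 (SD, n = 2).

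Cact encodes Cactus, the IkappaB-type inhibitor that holds Dorsal and Dif in the cytoplasm, and it was occupied over most of its length. Its span ran from 16313036 to 16326207 on 2L, 13.2 kb (gene ID 34969). The stronger of 2 combined regions ran from 16316860 to 16330006, scored 2.21 and ranked 963, and with 13.1 kb it was the 155th widest of its list. The replicates gave 2.34 and 2.33 at the same place, with ranks of 874 and 857. It covered the higher end and went on for 3799 bp, over the small genes CG4278 and mRpL4 and into CG4440, the nearest of them starting 862 bp beyond cact.

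The weaker region of cact covered its lower end. In the combined list it ran from 16305758 to 16316156, scored 1.21 and ranked 2905, and it held an end of 5 other coding genes, among them fzy, an activator of the anaphase-promoting complex whose span overlaps cact by 62 bp. In the replicates it was shorter, 4.89 and 5.02 kb in place of 10.4 kb, with scores of 1.58 and 1.65. The lists differed in how much of cact they covered: 94.7% in the combined list against 68.8% ± 1.52 (SD, n = 2). Both replicates left a stretch in the middle without a region, and in both the region over the higher end had the higher score.

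Dl encodes Dorsal, the factor that patterns the embryo along its back-to-belly axis and acts in immunity, and its region was the weakest among the 6 genes by their highest score. The gene spans 13.5 kb, from 17436830 to 17450364 on 2L (gene ID 35047). The combined region ran from 17449236 to 17451576, scored 1.29 and ranked 2754 of 5074, just below the list median of 1.37. The replicates gave 1.36 and 1.26, also below their medians of 1.46 and 1.49. The region was 2.34 kb wide and its centre lay 42 bp from the higher end, so it had the same narrow form over 1 end as that of Tl. A long non-coding RNA gene, lncRNA:CR46204, begins 130 bp beyond that end and lies partly in the region. Covered bases were 8.28% ± 0.010 of dl (SD, n = 2).

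Dif encodes the other Toll-dependent NF-kappaB factor and neighbours dl on 2L. Its span ran from 17413248 to 17433161, 19.9 kb (gene ID 35045). A single combined region at 17426970 to 17431712 scored 2.73 and ranked 414 of 5074, within the top 8.16% of the list. The replicates gave 2.72 and 2.75, with ranks of 464 and 407, within the top 9.52% and 8.44%. The region was 4.74 kb wide and lay wholly inside Dif. It stopped 1449 bp short of the higher end and began 13722 bp above the lower one. A short non-coding RNA gene, lncRNA:CR44409, lies within it, and no other coding gene does. Whether a Dif transcript starts inside the region is not given by the gene table used here. The combined region covered 23.8% of the gene, and the replicate regions covered 23.7% ± 0.192 (SD, n = 2). The neighbours dl and Dif thus differed in rank in the same direction in all 3 lists, 2754 against 414 in the combined one.

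Rel encodes Relish, the NF-kappaB factor of the Imd pathway that carries its own inhibitory tail, and it had the highest combined score of the 6 genes, but most of that region lies over other genes. The gene spans 3.80 kb, from 4869905 to 4873699 on 3R (gene ID 41087), and lies whole within the span of Nmdmc, which encodes a mitochondrial enzyme of folate metabolism. The combined list held 1 region of 16.2 kb from 4868540 to 4884786, with a score of 2.84 and a rank of 330 of 5074. It went on for 11087 bp beyond the higher end of Rel, across Mst85C and into Kdm2, which encodes a histone demethylase.

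In each replicate this stretch was divided in 2, and the parts differed in strength. A narrow region over the lower end of Rel ran from 4868558 to 4870791 in replicate 1 and from 4868669 to 4870806 in replicate 2. It scored 0.75 and 0.70, with ranks of 3804 of 4874 and 3895 of 4822, so it belonged to the weaker regions of both lists. Its centre was 230 and 168 bp from the lower end. A strong region of 13.5 and 13.4 kb began 1365 and 1401 bp above the lower end, covered the higher end and left the gene by 11098 and 11024 bp. It scored 2.96 and 3.06, with ranks of 269 and 189. The rank of Rel therefore depends on which end holds its start, which the gene table does not say. Together the 2 parts covered 87.1% ± 0.391 of Rel (SD, n = 2), against 100% in the combined list.

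The replicates placed the members' regions alike. Of 8 regions matched between the replicates at the 6 genes, the start differed by a median of 51.5 bp and the end by 35.5 bp. The largest differences were 345 bp at a start, in cact, and 74 bp at an end, in Rel. Scores set side by side differed by between 0.012 and 0.19, with the largest gap in pll.

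By the highest score over each gene, the order in the combined list was Rel at 2.84, Dif at 2.73, cact at 2.21, pll at 2.14, Tl at 1.84 and dl at 1.29. Replicate 1 gave Rel, Dif, cact, pll, Tl and dl at 2.96, 2.72, 2.34, 2.07, 1.86 and 1.36. Replicate 2 gave them at 3.06, 2.75, 2.33, 2.25, 1.84 and 1.26. The order was the same in all 3 lists. The place of Rel rests on the region that it shares with other genes. The region over its lower end scored 0.75 and 0.70 in replicates 1 and 2, below that of dl in the same lists. Cact and pll, next to each other in this order, were 0.07 apart in the combined list and in replicate 2, and 0.27 apart in replicate 1. The replicate scores of pll differed by 0.19. That value sets 2 lists side by side on an unnamed scale, so it does not measure the error of these gaps. The median over the 6 genes was 2.17 in the combined list, beside 1.68 over the 3460 coding genes of these arms with a region. It was 2.20 beside 1.72 in replicate 1 and 2.29 beside 1.76 in replicate 2. The values overlapped widely, since dl lay below the background median in each list. The median percent of the span covered was 42.7% in the combined list and the mean 48.5%. Over all coding genes of the arms, those without a region included, the median was 13.8% and the mean 37.1%. Over the 3460 coding genes with a region they were 73.7% and 64.7%, which is above the 6 genes.

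The cecropin genes stood together in a stretch without any enriched region. CecA1 spans 26036596 to 26036995 on 3R (gene ID 43596), CecA2 26037878 to 26038290 (43597), CecB 26039037 to 26039519 (43598) and CecC 26042206 to 26042660 (43599). They are between 400 and 483 bp long, and the cluster from CecA1 to CecC measures 6.07 kb. All 4 had 0% of their bases in a region in the combined list and in each replicate list. Since no base was covered, this holds for the start on either strand. No region typed as depleted lay within 1000 bp of them.

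The region-free stretch was bounded by strong regions on both sides, and at almost the same positions in every list. It measured 66.8 kb in the combined list and in each replicate, beside a median of 6.47 kb over the 1915 stretches between combined regions on these arms. In the combined list 91.6% of the stretches were shorter and 159 were longer. Each stretch was counted once whatever its length, and a gene without a region lies more often in a long stretch. These values therefore do not show how unusual the stretch is for a gene without a region. It held 15 genes whole, of which 10 code for proteins.

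The region nearest to the cecropins lay over the gene of a ribosomal protein. It covered all of RpS7, which encodes a protein of the small ribosomal subunit, from 26030938 to 26035726, and scored 2.60 with a rank of 507 of 5074. The replicates gave 2.53 and 2.68 with ranks of 642 and 457. It stopped 870 bp below CecA1 in the combined list, and 885 and 870 bp below it in replicates 1 and 2. Distances from CecA2, CecB and CecC to the same region were 2152, 3311 and 6480 bp in the combined list. On the other side the next region began 59.9 kb beyond CecC, with scores of 2.12, 2.37 and 2.32 in the combined, replicate 1 and replicate 2 lists.

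Anp, the gene of the peptide andropin made in the male reproductive tract, lies between RpS7 and CecA1. The RpS7 region reached 57 bp into its 435 bp in the combined list, and 42 and 57 bp in the replicates. This end of Anp counts as covered by the rule, though the region passes it only by those bases. They are fewer than the 500 bp to which the placement was checked, so whether the region reaches Anp is not settled. The narrowest region called on these arms was 1001 bp wide in the combined list, 1305 bp in replicate 1 and 1303 bp in replicate 2. Each cecropin gene is shorter than that, so the lists hold no region as small as a cecropin gene. How well reads could be placed on the similar sequences of the cecropin genes and of the pseudogenes Cec-Psi1 and Cec2 between them was not tested.

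**Figure D3:**
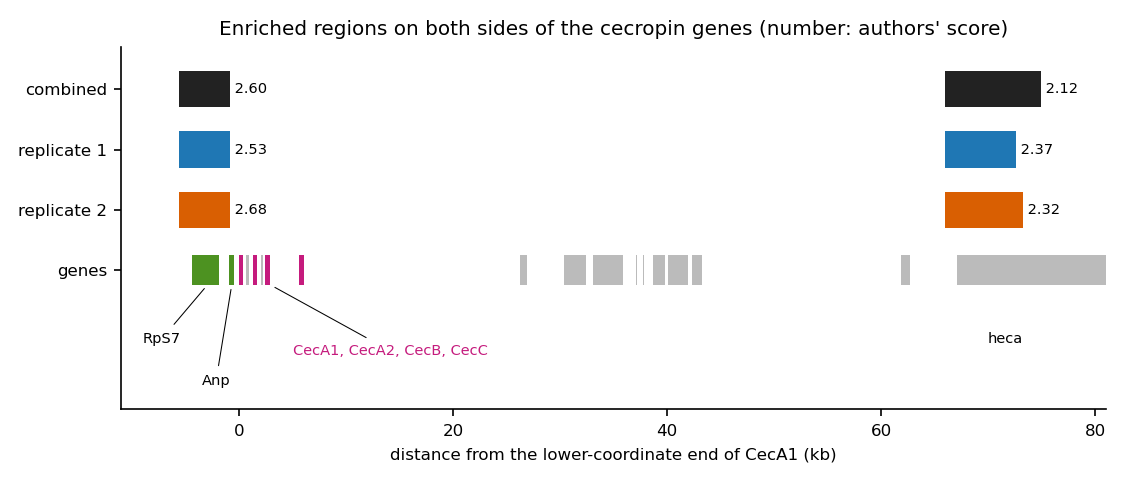
Enriched regions next to the cecropin genes in the combined, replicate 1 and replicate 2 lists, by distance from the lower end of CecA1 in kb, with the authors' score beside each bar, the cecropin genes in magenta, RpS7 and Anp in green and other genes in grey (small RNA genes inside RpS7 are not drawn, and heca runs on beyond the axis). The RpS7 region ends 870 bp below CecA1 in the combined list and no region follows for 66.8 kb in any list.

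Genes of the same pathways on 2L and 3R were described from lists written with earlier results of these data known. Without the members, 19 of 28 placed genes had an end in a combined region, beside 56.0% of coding genes. The replicates gave 18 and 19 of 28. Of coding genes that span at least 2 kb, 65.0% had an end in a combined region, so 19 of 28 is near that share. Genes on other arms were not placed, and of 75 pathway genes listed besides the members 47 are therefore not analysed here.

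Genes for components inside the cell mostly had a region at an end. Of 11 such placed genes of the Toll and Imd pathways besides the members, 11 had an end in a combined region. Of all coding genes 56.0% had one, and of those that span at least 2 kb 65.0%. In replicates 1 and 2 the counts for the 11 genes were 10 and 11. The list had held wntD, whose product is secreted, with these genes, and wntD was moved to the genes for proteins outside the cell after its values were seen. With wntD among them the counts are 11, 10 and 11 of 12. Pli, which encodes Pellino, a ubiquitin ligase that binds Pelle, had regions over both ends, and its stronger one scored 4.19 and ranked 8 of 5074, with 4.26 and 4.13 in the replicates. That region also held an end of 1 other coding gene. Tub, which encodes the adaptor Tube, was covered in full with a score of 1.69, and replicate scores of 1.71 and 1.74. The kinase gene Gprk2 scored 2.40, with 2.41 and 2.46 in the replicates. Lwr, for the SUMO-conjugating enzyme, scored 2.15, and krz, for the fly beta-arrestin, 1.78. Hrs, an endosomal sorting gene, was lower at 0.82, and 0.84 and 1.04 in the replicates. Other coding genes also had an end in the highest-scoring combined region of each of these. There were 4 for lwr, 3 for tub, 2 for krz and 1 each for Gprk2 and Hrs.

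On the Imd side the adaptor gene Fadd was covered in full and scored 1.40, with 1.51 and 1.55 in the replicates, while 3 other coding genes had an end in that region. IKKbeta, for the kinase that acts on Relish, scored 1.60, with 1.58 and 1.66. The gene of the ubiquitin-conjugating enzyme eff scored 1.74 and was covered in full. The deubiquitinase gene trbd had regions over both ends and scored 3.43, a rank of 59 of 5074, with 3.43 and 3.53 in the replicates. CYLD, another deubiquitinase gene, was at the floor of the lists, with 0.14 in the combined list, 0.22 in replicate 2 and no region in replicate 1. The combined regions of IKKbeta and eff each held an end of 2 other coding genes. The highest-scoring combined regions of trbd and CYLD each held an end of 1.

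Genes for proteins outside the cell or at its surface were less uniform. Of 13 placed genes for secreted factors, proteases, Toll-family receptors and peptidoglycan sensors besides Tl, wntD included, 4 had an end in a region in each of the 3 lists. Without wntD the count is 4 of 12. The share over coding genes was 56.0% in the combined list and 54.5% and 54.3% in replicates 1 and 2. Of coding genes that span at least 2 kb, 65.0% had one in the combined list. Spz, the gene of the Toll ligand Spätzle, scored 2.50, with 2.56 and 2.42 in the replicates. Of the 4 genes with a region it was the only one whose highest-scoring combined region held no end of another coding gene. The protease genes modSP, grass and ea scored 1.84, 1.44 and 2.19 in the combined list. The protease genes SPE, snk and Sp7, the ligand relatives spz3 and spz4, the Toll relatives Toll-4 and Tehao, PGRP-LB, for a peptidoglycan-degrading protein, and wntD, whose product restrains Toll signalling, had no region. The difference between these genes and those inside the cell was not tested.

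The JNK branch, which is activated alongside Imd signalling, had an end covered in all 4 placed genes in every list, beside 56.0% of coding genes and 65.0% of those that span at least 2 kb in the combined list. Bsk, the gene of the kinase JNK, scored 1.93. Kay, the gene of the Fos factor, scored 2.28, puc, for the JNK phosphatase, 1.75, and Mkk4 1.78. The highest-scoring region of Mkk4 also held an end of 6 other coding genes, that of puc an end of 4 and that of bsk an end of 2. Of 15 peptide genes listed besides the cecropins, only 2 were placed, Anp and AttD, and the rest were not analysed here. AttD, for an attacin, had no region in any list, as had 42.8% of coding genes in the combined list. Anp counts as having an end covered, by the RpS7 region described above.

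**Figure D4:**
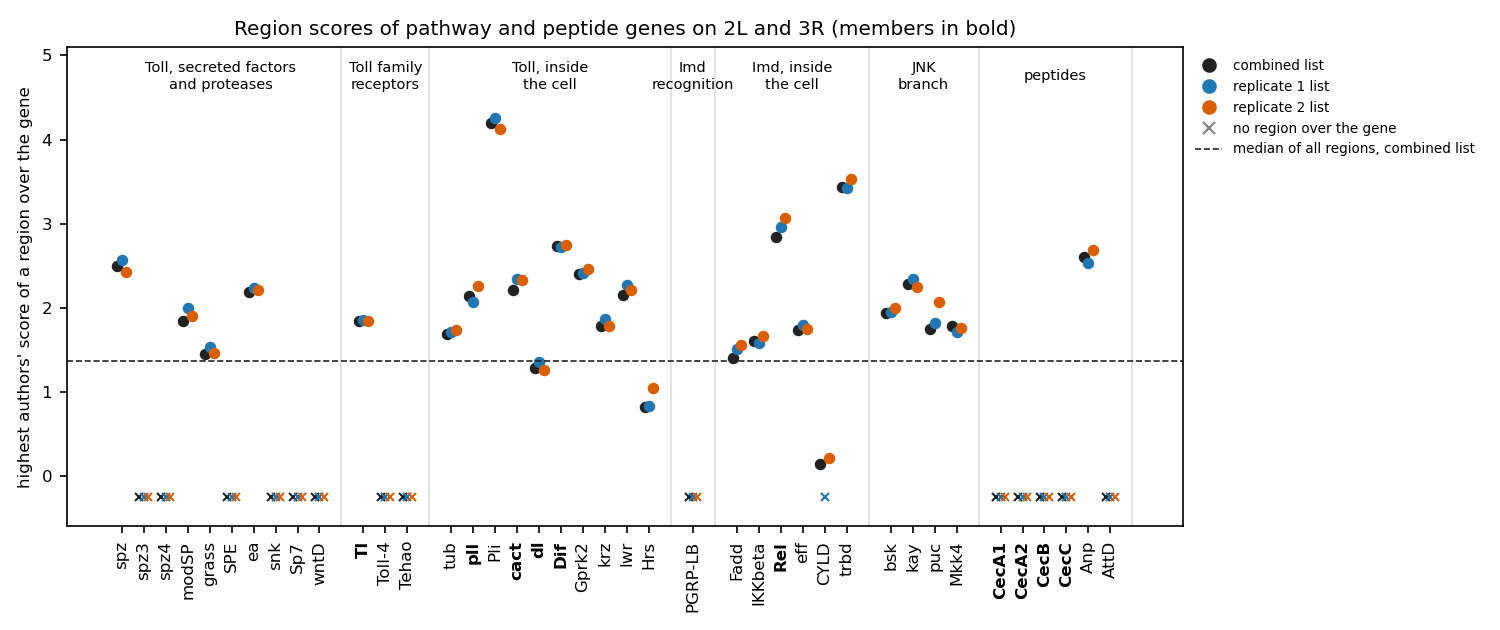
Highest authors' score of a region over each placed gene (y axis, scale not named) in the combined, replicate 1 and replicate 2 lists, with genes grouped by role along the x axis and members in bold. Crosses below 0 mark genes with no region. The score drawn at Anp is that of the region over RpS7, which passes an end of Anp by 57 bp in the combined list. All 4 cecropin genes and AttD are crosses in each list, Pli and trbd have the highest scores at 4.19 and 3.43 in the combined list, and dl lies below the list median of 1.37.

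Kc167 cells are known for features of plasmatocytes, the phagocytic blood cells of the fly, though the labels do not name a cell type. Of 9 genes of that type placed on these arms, 6 had an end in a region in each list, beside 56.0% of coding genes for the combined regions and 54.5% and 54.3% for those of the replicates. That count is near the background and does not speak to the cell type. The collagen IV genes Col4a1 and vkg scored 2.46 and 2.65 and the blood factor gene srp 2.55 in the combined list. Ppn, for an extracellular matrix protein, scored 1.80 and crq, for a scavenger receptor, 1.52. The phagocytosis receptor gene eater scored 0.80, below the list median of 1.37, whereas NimC1, Sr-CI and NimB5 had no region. Of 8 placed genes of other cell types, 2 had an end in a combined region, bam and twe, and repo, Act88F, Mhc, nompC, Or22a and Or83a did not. The region at bam was 22.6 kb wide, held an end of 8 other coding genes and covered 13.7% of bam. Twe had both ends and 63.5% of its span covered. Its highest-scoring combined region scored 1.55 and held an end of 2 other coding genes.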

How the data were processed

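Chromatin was fixed with 1.8% formaldehyde for 10 min and incubated with antibody for 15 h, per the labels' protocols. Bowtie 0.12.7 is named in the submitters' processing notes, and per the file headers positions follow FlyBase release 5. Neither labels nor headers name the program that called regions, a cutoff, the part played by input DNA or how replicates were put together. The authors deposited a score for each region without naming its scale. A region counted when its score was above 0.

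Genes came from the RefSeq table (Release 6 plus ISO1 MT), placed on release 5 by a fixed shift for 2L and 3R only. The planned count of start sites became a count of gene ends, since the table has no strand, and the planned promoter motifs were not searched, since no sequence was used here. A region was over an end when it held that base. Named genes were the members, genes sharing their combined regions, and genes of lists for the pathways, peptides and cell types. RpS7 and heca, in the regions on either side of the cecropins, were named after the values were seen. The members and lists were chosen with earlier results of these data known. No test was made, because genes are not replicates and only 1 condition was measured. The mean ± SD is over the 2 replicate lists. The replicates may be technical. The procedure was tested on simulated data with planted regions. Alternatives were each replicate list, stricter or looser region and end rules, joining and moved gene positions. Python 3.11.15, numpy 2.4.6, pandas 2.3.3 and matplotlib 3.10.9 were used.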

Additional observations from a re-analysis of the deposited data

How the results depend on the processing

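The count of signalling genes with an end in a combined region was 5 of 6 under most of the alternatives tried. It was 4 when only regions at or above the median score were kept, which removed dl, and 6 when any base of the gene counted, which added Dif. It was 2 when both ends had to be covered. The any-base and both-ends alternatives were added after the data were seen, since the gene table has no strand. No alternative gave a cecropin gene a region. The window, the joining and the moves of 500 bp could not have done so, since the nearest combined region ended 870 bp below CecA1. Stricter rules could only remove regions, so these settings do not bear on the cecropin count. The pathway list moved from 19 of 28 genes to 10 when both ends had to be covered. That rule was met by 30.2% of coding genes and by 26.8% of those that span at least 2 kb. Under the other alternatives the pathway list gave between 17 and 19. The median percent of the span covered, 42.7% over the 6 genes, was between 40.7% and 42.7% in the single replicate lists, 30.5% with gene positions moved 500 bp lower and 54.9% with them moved 500 bp higher, so it rests on the accuracy of the placement. By gene, pll ranged from 37.3% to 86.0%, cact from 67.7% to 94.7%, Rel from 86.9% to 100%, dl from 0% to 12.0%, Tl from 1.52% to 3.82% and Dif from 23.6% to 23.9%. No paired analysis was possible because the groups with shared replicate numbers are ChIP and input, only ChIP region lists were used here, and the values are counts without a test. Depth is unknown, so a gene without a region may hold polymerase below what these lists could call.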
